A study of Mus musculus with 12 samples.

Results

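Notch and secretory lineage regulators are 10 genes that act together where the crypts of the intestine decide between absorptive and secretory cells. They were taken by name from the deposited tables: the receptor Notch1, the ligands Dll1, Dll4 and Jag1, the Notch target Hes1, and the transcription factors Atoh1, Gfi1, Spdef, Neurog3 and Neurod1. All 10 were found, each under a single row, among 54532 genes. A Notch receptor is cleaved when a ligand on a neighbouring cell binds it, and its inner part then enters the nucleus and switches on genes such as Hes1. Hes1 represses Atoh1, the factor that mouse intestine needs to make goblet, Paneth and enteroendocrine cells, so that cells receiving a Notch signal tend to become absorptive. In crypts Dll1 and Dll4 are the ligands known to matter most, while Jag1, Notch1 and Dll4 are also made by blood vessels and other cells of the gut wall.

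The tissue was small intestine of C57BL/6J mice in 4 groups of 3 libraries each: intestinal epithelial Piezo1 knockout (CKO) with necrotizing enterocolitis (NEC), floxed controls (flox) with NEC, CKO without injury (control) and flox without injury. NEC is an inflammatory necrosis of the newborn bowel, and Piezo1 is a mechanically gated cation channel. The sources used here name neither the Cre driver and the deleted exons nor the age of the mice and the way NEC was induced. The labels do not say that libraries came from separate mice, so p-values measure the spread between libraries, which may be technical. Values are rescaled FPKM, that is, reads per gene length and library size, with reads recovered from the deposited FPKM (13057724 to 16821130 per library) and all 12 libraries put on a shared scale. The deposited NEC values sat 0.15 log2 higher against the control values than on this scale. Because each condition was deposited in its own table, a difference between NEC and control cannot be told apart from a difference between the tables. In whole tissue, fewer cells of a type and less RNA per cell cannot be told apart either.

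Piezo1 was read in all libraries, at 4.97, 5.13 and 3.04 rescaled FPKM in CKO NEC, 6.75, 6.64 and 6.23 in flox NEC, 1.76, 1.06 and 0.951 in CKO control and 1.42, 1.48 and 1.11 in flox control. It was lower in 3 of 3 CKO NEC libraries without passing the threshold (log2 difference of -0.51 ± 0.17 SE, limma adjusted p = 0.846), and the uninjured groups overlapped. Whole-gene values also hold exons outside any deletion and cells other than epithelium, so they do not check the knockout. The 8 epithelial markers, Epcam, Vil1 and keratins among them, were read in every library, with sums between 2535 and 3407 in NEC libraries and between 2593 and 3870.3 in control libraries. They mark epithelium and do not check the label of small intestine. Smooth muscle markers differed between libraries. They summed to 521 in CKO NEC library 3, against 1680 to 2847 in the other NEC libraries, and to 189 in CKO control library 2, against 542 to 882 in the other control libraries.

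The promoters of Atoh1, Spdef and Neurog3 are shown as those of factors of the secretory and endocrine paths whose NEC and control libraries did not overlap, and that of Dll1 as the member that fell in both genotypes. Each is the 250 bases before the start site (RefSeq, GRCm38.p6, 5′ to 3′ on the gene's strand). Capitals mark 3 motifs searched on both strands: TGGGAA, the core bound by the Notch effector RBPJ; CACNAG, the N-box bound by Hes factors; and CANNTG, the E-box bound by basic helix-loop-helix factors such as Atoh1, Neurog3 and Neurod1.
Atoh1, chr6:64728875-64729124 (+ strand): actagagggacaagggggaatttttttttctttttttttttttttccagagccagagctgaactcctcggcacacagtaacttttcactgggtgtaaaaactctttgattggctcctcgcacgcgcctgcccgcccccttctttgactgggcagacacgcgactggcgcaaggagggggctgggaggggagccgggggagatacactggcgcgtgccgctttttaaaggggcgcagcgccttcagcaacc
Spdef, chr17:27728952-27729201 (- strand): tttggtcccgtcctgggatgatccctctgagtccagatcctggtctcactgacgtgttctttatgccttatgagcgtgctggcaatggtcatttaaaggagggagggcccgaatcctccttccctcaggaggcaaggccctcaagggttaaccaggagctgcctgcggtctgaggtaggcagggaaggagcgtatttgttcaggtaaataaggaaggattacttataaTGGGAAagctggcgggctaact
Neurog3, chr10:62132840-62133089 (+ strand): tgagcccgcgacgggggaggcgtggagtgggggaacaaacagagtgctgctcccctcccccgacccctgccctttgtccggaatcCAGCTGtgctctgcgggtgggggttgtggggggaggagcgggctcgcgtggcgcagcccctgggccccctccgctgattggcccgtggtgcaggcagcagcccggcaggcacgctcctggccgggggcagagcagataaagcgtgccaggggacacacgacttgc
Dll1, chr17:15376933-15377182 (- strand): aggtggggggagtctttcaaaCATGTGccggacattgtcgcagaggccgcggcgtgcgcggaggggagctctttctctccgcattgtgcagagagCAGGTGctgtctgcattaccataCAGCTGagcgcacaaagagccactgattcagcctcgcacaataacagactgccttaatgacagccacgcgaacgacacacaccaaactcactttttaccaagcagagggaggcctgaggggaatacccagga
Of 32851 promoter windows of this length, 21.6% held TGGGAA, 36.7% CACNAG and 66.2% CANNTG. The Spdef window held 1 TGGGAA, the Neurog3 window 1 E-box (CAGCTG), the Dll1 window 3 E-boxes and the Atoh1 window no match, and no motifs overlapped in these windows. RefSeq windows were matched for 9 of the 10 genes. Those of Notch1 and Dll4 held 1 N-box each, those of Jag1, Gfi1 and Neurod1 1 E-box each. The deposited starts of Atoh1, Dll4 and Neurog3 equal the start sites of their windows. The start site of the Notch1 window, 26503822, lies inside the deposited span of the gene, 26457903 to 26516663 on the minus strand. That window therefore does not precede the gene as counted. A match is a run of letters, and no binding was measured.

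In NEC tissue of both genotypes the receptor Notch1, the ligands Dll4 and Jag1 and the secretory factors Atoh1 and Spdef rose, the ligand Dll1 fell, and Hes1 did not pass the test in either genotype. NEC against control asks what goes with injury in each genotype. In CKO tissue 6 of the 10 genes passed an adjusted p of 0.05 (5 higher, 1 lower), and in flox tissue the same counts were found. Of all genes tested, 37.7% passed in CKO and 56.3% in flox (17.4% and 28.6% higher, 20.3% and 27.7% lower; at an unadjusted p under 0.05, 48.9% and 61.5%), so passing in itself was common. Of the 10 genes, 8 had NEC and control libraries that did not overlap in CKO (6 higher, 2 lower) and 8 in flox (7 higher, 1 lower), beside 53.6% and 64.8% of genes tested. The filter asked that 3 or more of the compared libraries reach 1 FPKM, and it was met by 7 of the 10 genes in each genotype. Gfi1, Neurog3 and Neurod1 did not meet it, and Atoh1 met it in flox through its NEC libraries alone. Notch1 in both genotypes and Atoh1 in CKO had a control library below 1 FPKM, so they met it with the help of their NEC libraries. The 8 genes without overlap include Neurog3 and Neurod1 in CKO, and Gfi1 and Neurog3 in flox. The percentages beside them cover only genes that met the filter.

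**Figure D1:**
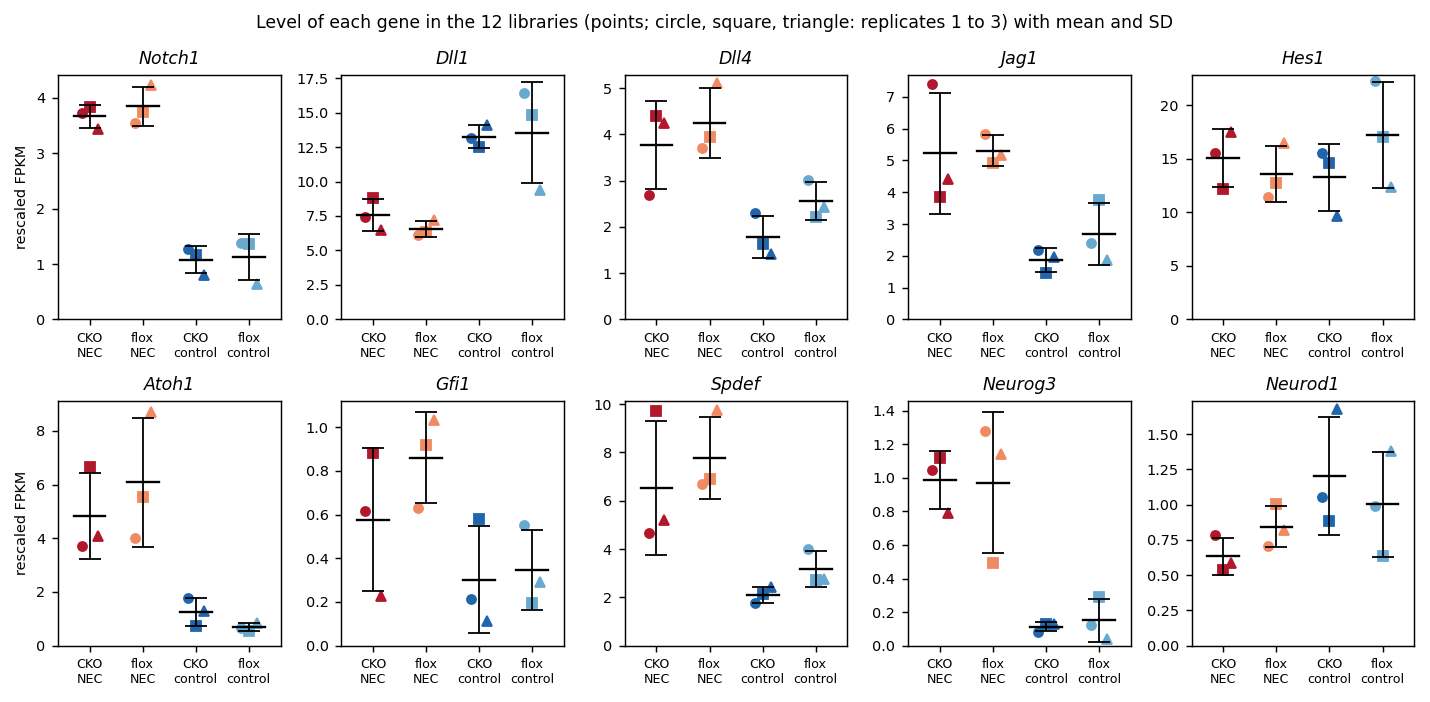
Rescaled FPKM (vertical axes, starting at 0) of the 10 genes in CKO NEC, flox NEC, CKO control and flox control, with each library as a point and the mean and SD of 3 as bars. Atoh1, Spdef, Notch1 and Neurog3 sit higher in every NEC library than in any control library, and Dll1 sits lower.

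Notch1 (ENSMUSG00000026923, chromosome 2, 26457903 to 26516663, minus strand; coordinates here and below are those of the deposited tables, whose build the labels do not name) encodes the receptor itself. It stood at 3.73, 3.84 and 3.44 rescaled FPKM in CKO NEC libraries, against 1.26, 1.16 and 0.804 in CKO control libraries. In flox it stood at 3.55, 3.75 and 4.24 in NEC libraries, against 1.38, 1.36 and 0.638 in control libraries. The lowest NEC library lay above the highest control library, as was true of 25.0% of genes tested in CKO and 33.2% in flox. The log2 difference of FPKM plus 1 was 1.17 ± 0.14 (SE) in CKO (limma adjusted p = 0.00236) and 1.21 ± 0.17 in flox (adjusted p = 0.00101), and the ratio of group means was 3.4 in CKO and 3.42 in flox. Notch1 entered both tests with the help of its NEC libraries. The fit without a filter gave the same differences, with a limma adjusted p of 0.0114 in CKO and 0.00564 in flox. Between the genotypes the NEC and the control levels of Notch1 overlapped.

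The ligands parted from each other. Dll1 (ENSMUSG00000014773, chromosome 17, 15367354 to 15376872, minus strand) is the ligand that secretory progenitors of the crypt display. It fell to 7.44, 8.79 and 6.45 rescaled FPKM in CKO NEC, against 13.1, 12.5 and 14.1 in CKO control, and to 6.10, 6.31 and 7.24 in flox NEC, against 16.4, 14.8 and 9.42 in flox control. Every NEC library was below every control library of either genotype, and flox control library 3 was the lowest of the controls. The log2 difference was -0.74 ± 0.14 (SE, limma adjusted p = 0.00709) in CKO and -0.91 ± 0.20 (adjusted p = 0.00578) in flox. A930024N18Rik overlaps Dll1 on the other strand. It averaged 0.624 and 0.464 rescaled FPKM in CKO and flox NEC against 1.08 and 0.831 in CKO and flox control. Whether reads were counted by strand is not given, so reads where these genes overlap cannot be told apart.

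Dll4 (ENSMUSG00000027314, chromosome 2, 119325784 to 119335962, plus strand), the ligand that crypt cells share with sprouting vessels, stood at 2.69, 4.39 and 4.24 rescaled FPKM in CKO NEC, against 2.29, 1.64 and 1.41 in CKO control. In flox it stood at 3.70, 3.95 and 5.10 in NEC, against 3.02, 2.21 and 2.43 in control. It rose by 0.77 ± 0.20 log2 (SE, limma adjusted p = 0.0212) in CKO and by 0.56 ± 0.15 (adjusted p = 0.0138) in flox, the smallest of the 6 changes in flox. In CKO the Dll4 difference missed the threshold in the fit without a filter (0.77, p adjusted to 0.0631) and when NEC library 2 (0.67, p adjusted to 0.0754), NEC library 3 (0.69, p adjusted to 0.0603), control library 2 (0.74, p adjusted to 0.0608) or control library 3 (0.68, p adjusted to 0.0588) was left out. In flox it did so when NEC library 3 was left out (0.45, p adjusted to 0.0518). An antisense gene, Gm14207, overlaps Dll4 and averaged 3.08 and 2.16 rescaled FPKM in CKO and flox NEC against 0.717 and 1.46 in CKO and flox control; the sources used here do not say that reads were counted by strand, so reads where the genes overlap cannot be told apart.

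Jag1 (ENSMUSG00000027276, chromosome 2, 137081456 to 137116644, minus strand), a ligand of the Jagged class that smooth muscle and endothelium also make, stood at 7.41, 3.84 and 4.43 rescaled FPKM in CKO NEC, against 2.17, 1.45 and 1.98 in CKO control. In flox it stood at 5.84, 4.92 and 5.19 in NEC, against 2.39, 3.76 and 1.88 in control. CKO NEC library 1 was the highest of all, and within each genotype no NEC library overlapped a control library. The rise was 1.09 ± 0.22 log2 (SE, limma adjusted p = 0.0106) in CKO and 0.81 ± 0.19 (adjusted p = 0.00850) in flox.

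Ratios between ligands inside a library do not depend on how libraries are scaled. Dll1 stood at 1.52 to 2.77 times Dll4 in CKO NEC and 1.42 to 1.65 times in flox NEC, against 5.74 to 9.995 times in CKO control and 3.87 to 6.68 times in flox control. The ratio of Jag1 to Dll1 was 0.437 to 0.996 in CKO NEC and 0.716 to 0.957 in flox NEC, against 0.116 to 0.165 in CKO control and 0.146 to 0.254 in flox control. For both ratios no NEC library overlapped a control library. For Jag1 to Dll1 this follows from the levels above, as every NEC library had more Jag1 and less Dll1 than every control library. Within each genotype it also follows for Dll1 to Dll4. The ratios therefore restate the levels and add no separate support. Jag2 is not part of them. These ratios were chosen after the levels were seen and carry no test.

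**Figure D2:**
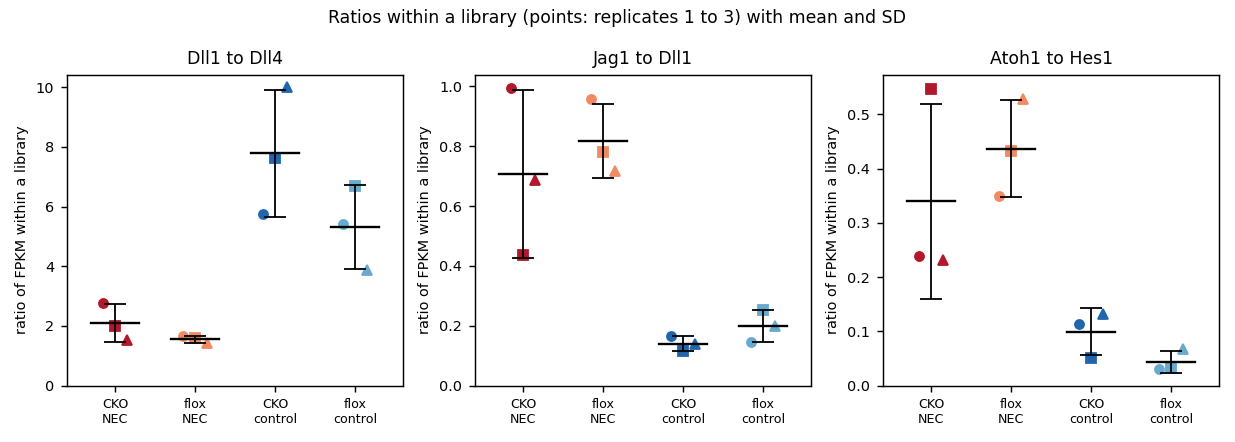
Ratios of rescaled FPKM inside each library (vertical axes, starting at 0) for Dll1 to Dll4, Jag1 to Dll1 and Atoh1 to Hes1 in the 4 groups, with mean and SD of 3 libraries. Dll1 to Dll4 is 1.42 to 2.77 in the 6 NEC libraries and 3.87 to 9.995 in the 6 control libraries, and the other ratios are higher in NEC than in control.

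Hes1 (ENSMUSG00000022528, chromosome 16, 30064384 to 30067796, plus strand), the repressor that reads out Notch signalling, was the most abundant of the 10 genes in NEC. It stood at 15.5, 12.2 and 17.5 rescaled FPKM in CKO NEC, against 15.5, 14.6 and 9.66 in CKO control, and at 11.4, 12.7 and 16.5 in flox NEC, against 22.2, 17.0 and 12.4 in flox control. The groups overlapped in both genotypes. The log2 difference was 0.19 ± 0.21 (SE, 95% interval -0.30 to 0.67, limma adjusted p = 0.511) in CKO and -0.30 ± 0.22 (interval -0.81 to 0.21, adjusted p = 0.274) in flox, where it passed only without flox control library 3 (-0.51, adjusted p = 0.0446). Neither interval shows that Hes1 was level.

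Atoh1 (ENSMUSG00000073043, chromosome 6, 64729125 to 64731245, plus strand) starts the secretory programme. It stood at 3.72, 6.65 and 4.07 rescaled FPKM in CKO NEC, against 1.77, 0.736 and 1.28 in CKO control. In flox it stood at 4.001, 5.52 and 8.71 in NEC, against 0.670, 0.556 and 0.836 in control. No NEC library overlapped a control library. The reads behind these values were 127 to 280 per NEC library and 17 to 55 per control library. Atoh1 rose by 1.35 ± 0.24 log2 (SE, limma adjusted p = 0.00686) in CKO and by 2.02 ± 0.23 (adjusted p = 4.38e-04) in flox, with ratios of group means of 3.81 and 8.84. In flox it entered this test through its NEC libraries alone, and in CKO with the help of the NEC libraries there. The fit without a filter gave the same differences, with a limma adjusted p of 0.0251 in CKO and 0.00278 in flox. Against Hes1 in the same library, Atoh1 was at 0.232 to 0.547 in CKO NEC and 0.349 to 0.528 in flox NEC, against 0.0504 to 0.133 in CKO control and 0.0301 to 0.0676 in flox control.

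Spdef (ENSMUSG00000024215, chromosome 17, 27714352 to 27728955, minus strand) matures goblet and Paneth cells downstream of Atoh1. It stood at 4.68, 9.71 and 5.21 rescaled FPKM in CKO NEC, against 1.75, 2.15 and 2.42 in CKO control, and at 6.70, 6.90 and 9.73 in flox NEC, against 4.02, 2.74 and 2.74 in flox control. It rose by 1.22 ± 0.25 log2 (SE, limma adjusted p = 0.00955) in CKO and by 1.07 ± 0.18 (adjusted p = 0.00198) in flox. Spdef and Atoh1 had the same top library in each NEC group: CKO NEC library 2 and flox NEC library 3. Those libraries also held the highest summed goblet markers of their groups, 1244 and 1388. Notch1, Dll1, Dll4 and Gfi1 were highest in the same libraries of their NEC groups. The shared top library is therefore not particular to Spdef and Atoh1. In the control groups the top libraries of Atoh1 and Spdef differed. Atoh1 was highest in CKO control library 1 (1.77) and flox control library 3 (0.836), and Spdef in CKO control library 3 and flox control library 1. Goblet markers were highest in the top control libraries of Spdef, at 753 and 642.

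Gfi1 (ENSMUSG00000029275, chromosome 5, 107716657 to 107726036, minus strand), which acts after Atoh1 and keeps goblet and Paneth precursors from the endocrine path, was scarce. It stood at 0.619, 0.882 and 0.229 rescaled FPKM in CKO NEC, against 0.215, 0.579 and 0.112 in CKO control, and at 0.629, 0.919 and 1.04 in flox NEC, against 0.552, 0.196 and 0.289 in flox control. The flox groups did not overlap and the CKO groups did. Summed over libraries, 95 reads in CKO NEC against 41 in CKO control gave a scaled ratio of 1.96 (exact Clopper-Pearson interval 1.35 to 2.90), and 126 in flox NEC against 48 in flox control one of 2.48 (1.77 to 3.53). These intervals cover counting error only. Without a filter, limma gave an adjusted p of 0.469 in CKO and 0.0697 in flox, and limma-voom on reads 0.349 and 0.0398.

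Neurog3 (ENSMUSG00000044312, chromosome 10, 62133090 to 62134763, plus strand) is made for a short time in cells that commit to the enteroendocrine fate. It stood at 1.05, 1.12 and 0.793 rescaled FPKM in CKO NEC, against 0.0817, 0.127 and 0.128 in CKO control, and at 1.28, 0.494 and 1.14 in flox NEC, against 0.121, 0.290 and 0.0424 in flox control. No NEC library overlapped a control library. The values rest on 13 to 32 reads per NEC library and 1 to 7 per control library. The scaled ratio of summed reads was 8.89 in CKO (84 against 8 reads, exact interval 4.31 to 21.3) and 6.35 in flox (74 against 11 reads, interval 3.35 to 13.3). In the fit without a filter the log2 difference of FPKM plus 1 was 0.83 ± 0.11 (SE, limma adjusted p = 0.0116) in CKO and 0.76 ± 0.19 (adjusted p = 0.0304) in flox, a scale on which changes of scarce genes look small, and limma-voom without a filter gave 2.93 ± 0.57 (adjusted p = 0.00535) and 2.69 ± 0.74 (adjusted p = 0.0152). Fam241b, which overlaps Neurog3 on the other strand, averaged 5.80 and 4.81 rescaled FPKM in CKO and flox NEC against 8.30 and 6.14 in CKO and flox control.

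Neurod1 (ENSMUSG00000034701, chromosome 2, 79452521 to 79456751, minus strand) follows Neurog3 and stays on in endocrine cells. It stood at 0.783, 0.536 and 0.584 rescaled FPKM in CKO NEC, against 1.05, 0.884 and 1.68 in CKO control, and at 0.710, 1.00 and 0.822 in flox NEC, against 0.992, 0.635 and 1.38 in flox control. The CKO groups did not overlap, with NEC lower, and the flox groups did. Without a filter its log2 difference was -0.42 ± 0.18 (SE, limma adjusted p = 0.197) in CKO and -0.10 ± 0.18 (adjusted p = 0.703) in flox.

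**Figure D3:**
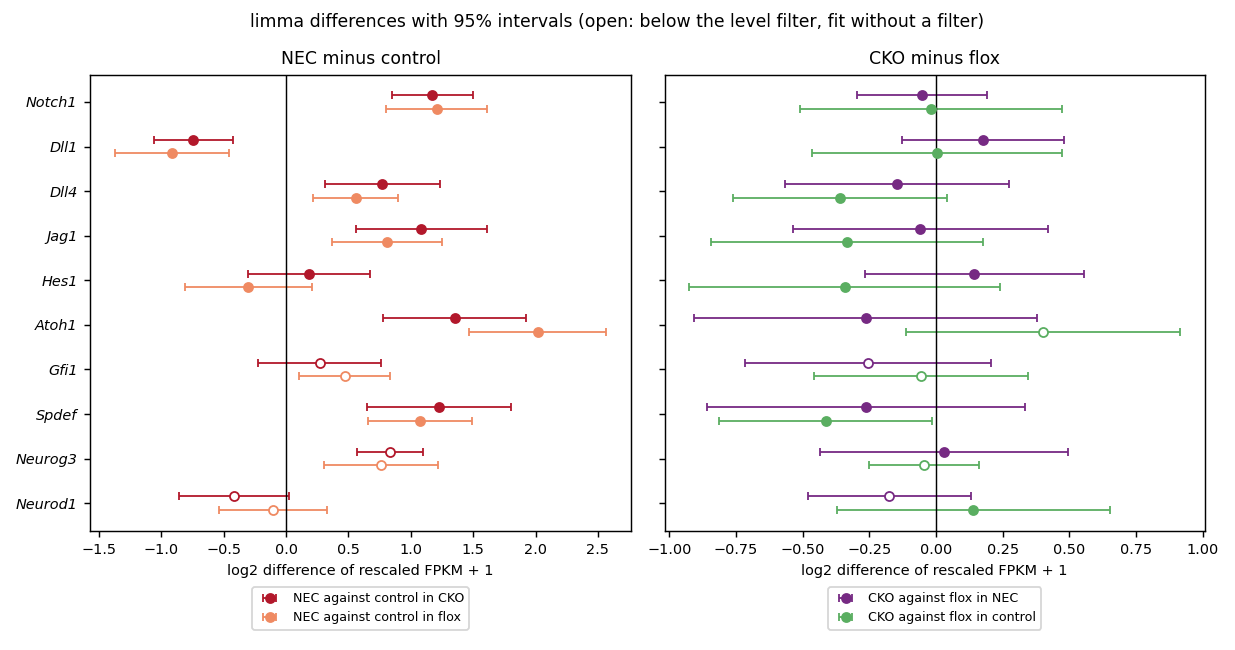
log2 differences of rescaled FPKM plus 1 with 95% intervals for the 10 genes (rows), NEC minus control on the left and CKO minus flox on the right, with open points for genes below the filter. On the left Atoh1 reaches 2.02 in flox and Dll1 is below 0 in both genotypes, while on the right all but 1 of the intervals include 0, the exception being Spdef in control.

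The marker genes of the cells these regulators make moved with NEC too. Of all genes tested, 17.4% were higher by the test in CKO and 28.6% in flox, and 20.3% and 27.7% were lower. Paneth markers summed to 128 to 346 rescaled FPKM in NEC against 9.95 to 71.6 in control, with 4 of 6 higher by the test in CKO and 6 of 6 in flox. Over the control libraries only 3 of the 6 met the filter, so the others entered these tests with the help of their NEC libraries. Goblet markers summed to 519 to 1388 in NEC against 489 to 753 in control, with 3 of 8 higher in CKO and 7 of 8 in flox, and Zg16 was at 0 in 2 CKO control libraries. Enteroendocrine markers went the other way, at 131 to 215 in NEC against 321 to 523 in control, with 4 of 11 tested lower and 1 higher in CKO and 6 of 12 lower and 2 higher in flox. Pancreatic markers, looked at because islets make Neurod1, summed to 3.37 to 8.33 in NEC and 6.61 to 24.6 in control, and Ins1 was at 0 in every library, and Ins2, Prss2 and Cpa1 were at 0 in every NEC library. What part marker levels had in the differences of Atoh1, Spdef, Neurog3 and Neurod1 was not tested.

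Cell types of the gut wall known to make Notch1, Dll4 or Jag1 were read from their markers too. Endothelial markers summed to 50.3 to 64.1 rescaled FPKM in NEC against 26.5 to 59.9 in control, with 5 of 8 higher in CKO and 4 higher and 1 lower of 8 in flox. Smooth muscle markers summed to 521 to 2847 against 189 to 882, with 1 of 5 tested higher in CKO and 5 higher and 1 lower of 6 in flox, and fibroblast markers to 284 to 583 against 57.1 to 285, with 6 of 6 higher in both genotypes. All endothelial, smooth muscle and fibroblast markers were above 0 in every library, and their part in the Notch1, Dll4 and Jag1 differences was not tested. Without CKO NEC library 3, which stood apart in smooth muscle markers, the log2 differences in CKO were 1.21 for Notch1 (limma adjusted p = 0.00620), 0.69 for Dll4 (adjusted p = 0.0603) and 1.16 for Jag1 (adjusted p = 0.0205). Without CKO control library 2 they were 1.21 (adjusted p = 0.0104), 0.74 (adjusted p = 0.0608) and 0.98 (adjusted p = 0.0349). Leukocyte markers, which matter for Gfi1 because blood cells also make it, summed to 18.8 to 31.7 in NEC against 78.4 to 103 in control, with Cd3e at 0 in 1 CKO NEC library. Stem cell markers summed to 28.5 to 94.9 against 27.9 to 54.5, tuft cell markers to 0.402 to 1.91 against 0.607 to 1.78 with Il25 at 0 in 4 NEC and 5 control libraries, Pou2f3 in 4 NEC libraries and Sh2d6 in 3, enterocyte markers to 6158 to 11331 against 17501 to 26347, and markers of enteric neurons and glia to 29.7 to 44.0 against 35.2 to 59.9.

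**Figure D4:**
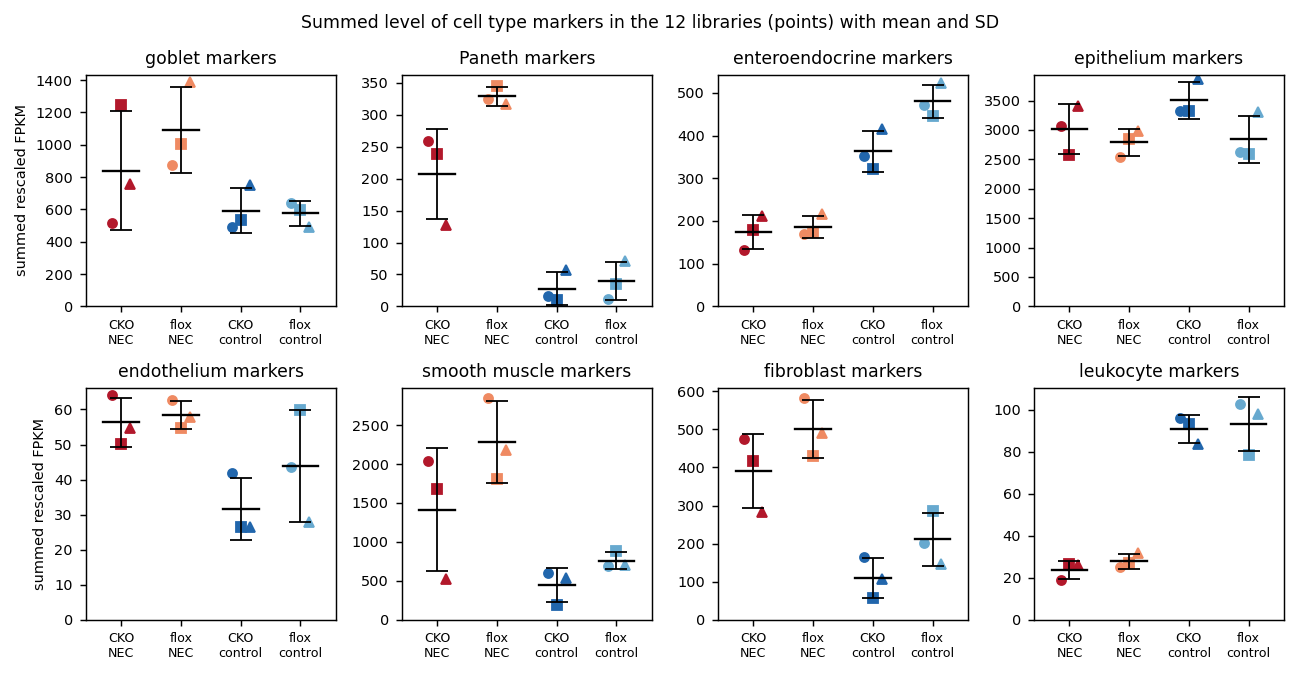
Summed rescaled FPKM of 8 marker lists (vertical axes, starting at 0) in the 12 libraries with the mean and SD of each group. Paneth sums are 128 to 346 in NEC against 9.95 to 71.6 in control, enteroendocrine sums are 131 to 215 against 321 to 523, and epithelial sums overlap.

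The wider pathway was described from 5 lists, which hold the 10 genes as well. Of 10 Notch receptors and ligands, 9 were tested, and 6 were higher and 1 lower in CKO NEC, against 5 higher and 2 lower in flox NEC. Their median log2 difference was 0.73 in CKO and 0.56 in flox, beside -0.024 and 0.011 over all genes tested. Notch3, a receptor of smooth muscle around vessels, rose to 4.27 ± 0.484 rescaled FPKM (SD, n = 3) in CKO NEC, against 1.11 ± 0.751 in CKO control, and to 4.72 ± 0.302 in flox NEC, against 1.40 ± 0.664 in flox control (limma adjusted p = 0.00653 and 0.00152). Notch2, the other receptor of crypt epithelium, rose to 3.59 ± 0.752 in CKO NEC, against 1.77 ± 0.466 in CKO control, and to 4.68 ± 0.616 in flox NEC, against 1.85 ± 0.0569 in flox control (adjusted p = 0.0208 and 4.88e-04). Jag2, a ligand of the same class as Jag1, went with Dll1: it fell in flox (log2 difference of -0.70, adjusted p = 0.00589) and missed the threshold in CKO (-0.46, adjusted p = 0.0501).

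Genes that process the receptor or carry its signal to DNA changed in both directions. Of 24 listed, 22 were tested in CKO (3 higher, 8 lower, median of -0.19) and 24 in flox (9 higher, 6 lower, median of 0.12). Among subunits of gamma-secretase, the protease that frees the inner part of Notch, Aph1c fell to 6.37 ± 3.85 rescaled FPKM (SD, n = 3) in CKO NEC, against 27.8 ± 4.07 in CKO control, and to 5.36 ± 0.977 in flox NEC, against 22.7 ± 1.98 in flox control. Psenen fell by 0.90 log2 in CKO and fell by 1.67 in flox (limma adjusted p = 0.0107 and 1.73e-04). Both ligases that ready ligands for signalling changed, in opposite directions: Mib1 rose by 0.48 and 1.08 in CKO and flox (adjusted p = 0.0165 and 3.23e-04), and Mib2 fell by 1.03 and fell by 1.53 (adjusted p = 0.00364 and 1.60e-04). Lfng, a glycosyltransferase that tunes Notch towards Delta ligands, rose by 0.87 and 0.82 (adjusted p = 0.0119 and 0.00165). Rbpj, the DNA-binding partner of cleaved Notch, rose in flox (0.76, adjusted p = 0.00183) and stood 0.41 higher in CKO without passing (adjusted p = 0.0530).

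Of 10 genes listed as Notch targets 7 were tested, with 1 higher in CKO and 1 higher and 1 lower in flox, and medians of 0.19 and -0.12. Whether the listed genes respond to Notch in this tissue was not tested. Nrarp, a feedback inhibitor of Notch, rose in CKO (3.97 ± 1.18 rescaled FPKM in NEC against 2.01 ± 0.157 in control, SD, n = 3, limma adjusted p = 0.0285) and missed the threshold in flox (3.22 ± 0.860 against 1.96 ± 0.517, adjusted p = 0.0524). Hey1, a target known from vessels, rose in flox (log2 difference of 0.47, adjusted p = 0.0392). The listed gene that fell in flox was Hes6, which works against Hes1 (-0.57, adjusted p = 0.00718), so its fall is not read as a fall of Notch output.

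Secretory lineage factors, 8 tested of 13, were higher in 4 and lower in 1 in CKO NEC and higher in 7 in flox NEC, with medians of 0.68 and 0.98. Creb3l1, a membrane-bound factor of secretory cells, rose to 14.98 ± 4.35 rescaled FPKM (SD, n = 3) in CKO NEC, against 5.002 ± 1.25 in CKO control, and to 19.0 ± 2.71 in flox NEC, against 6.24 ± 0.705 in flox control (limma adjusted p = 0.00546 and 1.83e-04). Klf4, which goblet cells need in colon, rose in flox alone by the test (1.09, adjusted p = 0.0119, and 0.16, adjusted p = 0.739, in CKO), and the difference between the genotypes did not pass (-0.93, adjusted p = 0.310). Xbp1, a factor of the secretory machinery, was the gene that fell in CKO (-0.51, adjusted p = 0.0418). Of 18 enteroendocrine factors only 4 were abundant enough to test, and 3 of them rose in both genotypes: Mlxipl, a sugar-sensing factor that enterocytes also make, Sox4 and Insm1. Sox4 rose by 1.37 and 1.64 log2 in CKO and flox (adjusted p = 0.00374 and 5.07e-04), and Insm1, which acts early in endocrine precursors, by 0.63 and 0.82 (adjusted p = 0.0330 and 0.0012).

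**Figure D5:**
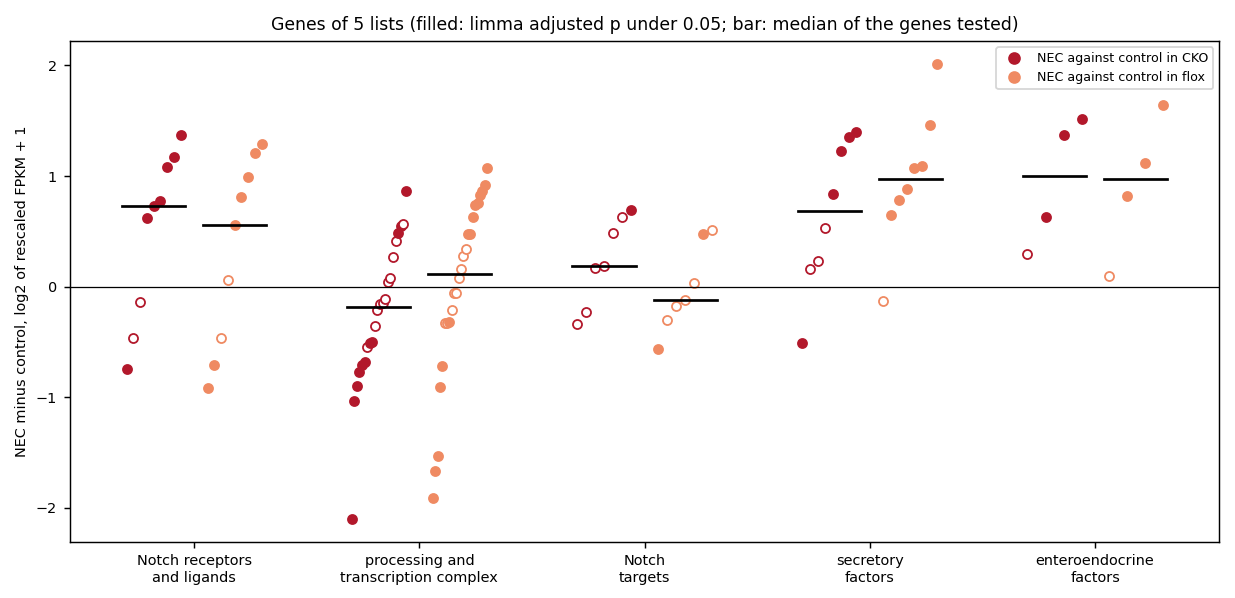
log2 differences of rescaled FPKM plus 1, NEC minus control (vertical axis), for the tested genes of 5 lists (horizontal axis) in CKO and flox, filled where the limma adjusted p is under 0.05, with bars at the medians. Receptors and ligands have medians of 0.73 and 0.56 and secretory factors of 0.68 and 0.98, while the genes listed as Notch targets straddle 0.

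CKO against flox asks what goes with the knockout, and none of the 10 genes passed the test in either condition. In NEC tissue 8 of the 10 met the filter and 0 passed, where 0% of all genes tested did. The count at an unadjusted p under 0.05 was also 0 of these 8, beside 4.38% of genes tested, and limma-voom on reads called 0. Atoh1 averaged 4.81 ± 1.60 rescaled FPKM (SD, n = 3) in CKO NEC and 6.08 ± 2.40 in flox NEC, with a log2 difference of -0.26 ± 0.27 (SE, 95% interval -0.91 to 0.38, limma adjusted p = 0.866). Spdef averaged 6.53 ± 2.76 in CKO NEC and 7.78 ± 1.70 in flox NEC (-0.26 ± 0.25, interval -0.86 to 0.33, adjusted p = 0.860). Notch1 was the tightest, at 3.67 ± 0.205 and 3.85 ± 0.357 (-0.053 ± 0.10, interval -0.30 to 0.19, adjusted p = 0.914). In all 10 genes, with Gfi1 and Neurod1 below the filter, the CKO and flox NEC libraries overlapped. Of genes tested, all of which met the filter, 10.8% did not overlap (5.33% higher, 5.50% lower). The Paneth markers summed to 128 to 258 in CKO NEC and 317 to 346 in flox NEC, and the goblet markers to 519 to 1244 and 876 to 1388, with 0 of the 6 and 0 of the 8 genes passing. Their part in the Atoh1 and Spdef values was not tested.

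In uninjured tissue 7 of the 10 met the filter and 0 passed, with 0.00748% of all genes tested (1 gene) passing and limma-voom on reads calling 0 of these 7 but 734 genes in all. Spdef was the 1 member with an unadjusted p under 0.05, beside 28.9% of genes tested, and the member whose groups did not overlap: 1.75, 2.15 and 2.42 rescaled FPKM in CKO control, against 4.02, 2.74 and 2.74 in flox control. Its log2 difference was -0.41 ± 0.17 (SE, interval -0.81 to -0.014, limma adjusted p = 0.162), and 34.5% of genes tested did not overlap in this comparison (12.8% with CKO lower). Dll4 averaged 1.78 ± 0.456 in CKO control and 2.56 ± 0.418 in flox control (-0.36 ± 0.17, adjusted p = 0.210). Atoh1, below the filter here, averaged 1.26 ± 0.519 in CKO control and 0.687 ± 0.141 in flox control (0.40 ± 0.21 without a filter, adjusted p = 0.426). Its order between the genotypes was therefore CKO above flox in control and flox above CKO in NEC, with overlapping libraries each time. Smooth muscle markers summed to 189 to 604.5 in CKO control and 690.3 to 882 in flox control, and their part in the Dll4 and Jag1 values was not tested.

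The interaction, CKO minus flox in NEC with CKO minus flox in control taken off, passed for 0 of the 9 genes that met the filter over 12 libraries, where 0.770% of all genes tested passed. The unadjusted p was under 0.05 for 0 of the 9, beside 20.7% of genes tested, and limma-voom on reads called 0. Atoh1 had the lowest value (-0.66 ± 0.37 SE, 95% interval -1.47 to 0.14, limma adjusted p = 0.329) and Hes1 the highest (0.49 ± 0.33, interval -0.23 to 1.2, adjusted p = 0.435). In the 5 lists no gene passed between the genotypes or in the interaction. The nearest were the Notch-cleaving protease Adam10, at 26.5 ± 1.67 rescaled FPKM (SD, n = 3) in CKO control and 15.4 ± 2.75 in flox control (limma adjusted p = 0.0564), with an interaction of -0.84 (adjusted p = 0.0567), and Ncstn, the gamma-secretase subunit nicastrin, at 97.9 ± 6.64 in CKO control and 64.4 ± 3.55 in flox control (adjusted p = 0.0561).

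Across the 12 libraries the genes whose profile was most like that of each of 9 members (Gfi1 did not meet the filter) were read off by Pearson's r of log2 FPKM plus 1, a description in which the split of NEC from control is shared by all points. Atoh1 was most like Sidt1 (r = 0.978), Tnrc18 (0.976) and Qsox1 (0.976), a sulfhydryl oxidase of the secretory pathway. Spdef was most like Ern2 (0.978), the stress sensor of mucus-making cells, Sbf1 (0.974) and Dot1l (0.969). Notch1 was most like Nfrkb (0.993), Mlxip (0.991) and Lrig3 (0.990), Jag1 like Nfib (0.966), Lrig1 (0.961), a marker of crypt progenitors, and Ctla2a (0.960), and Dll4 like Cul9 (0.955), Synj2 (0.944) and Capn2 (0.942). Dll1 went with Emc9 (0.976), Sapcd2 (0.974) and Cebpb (0.965). Hes1, which did not follow the split, went with Coq2 (0.934) and Coq6 (0.905), enzymes of coenzyme Q synthesis, and Trmt1 (0.902). Neurog3 went with AC160637.1 (0.965), Kdm2b (0.964) and Hsd11b2 (0.958), and Neurod1 with Xbp1 (0.891), Acot5 (0.885) and Cyth2 (0.872).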

How the data were processed

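Per the labels, Trizol RNA of the tissue went into NEBNext Ultra II libraries. The authors deposited FPKM in 2 tables, 1 per condition, with 6 libraries each and with gene lengths; aligner, counter and build: not given in the sources used here. In each library, FPKM multiplied by length came in whole steps (100% of values within 0.05 of a step), which gave reads. Reads were scaled by median-of-ratios factors over 12 libraries and divided by length. log2 of rescaled FPKM plus 1 was fitted with limma 3.58.1 (R 4.3.3, mean-variance trend) for genes of at least 1 FPKM in at least 3 libraries, with Benjamini-Hochberg adjustment over all genes tested at 0.05, in the 6 libraries compared or, for the interaction, 12. The fits were tested on simulated data in which only genes with a mean of at least 5 FPKM were changed. That simulation does not cover members below this level. Other work used Python 3.11.15, numpy 2.4.6, pandas 2.3.3, scipy 1.17.1 and matplotlib 3.10.9.

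The members, 5 pathway lists, 13 marker lists and tests were chosen with earlier results of these data known. Named were the members, Piezo1, up to 4 genes of each list with the smallest adjusted p (some are not named here), and the 3 genes most like each member that met the filter, leaving out symbols of the Gm and Rik kinds; Jag2, Rbpj and Xbp1 fall outside this rule and were chosen after their values were seen. Alternatives covered scaling, pseudocount, filter, limma-voom, a single fit of all groups, the replicate block and each library left out. Further descriptions, limma-voom without a filter for scarce members and ratios inside a library, were added after the data were seen.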

Additional observations from a re-analysis of the deposited data

How the results depend on the processing

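In NEC against control, the calls of Notch1, Dll1, Jag1, Atoh1 and Spdef kept their direction and side of the threshold in both genotypes under every alternative in which the gene was tested, deposited scaling included. Atoh1 in flox could not be tested without any 1 flox NEC library, because the filter then left it out. Dll4 in CKO also missed the threshold without a filter (0.77, adjusted p = 0.0631). A mean of at least 5 FPKM left 1 of 2 tested members called in CKO and 2 of 3 in flox, as fewer genes were tested, and 3250 and 4871 genes in all.

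Leaving out each library gave 0 to 1 genes called for CKO against flox in NEC, 0 to 817 in control, 3025 to 4421 for NEC against control in CKO and 0 to 529 for the interaction. The control comparison called 1 gene, but 0 without a filter, 764 at a mean of at least 5, 734 by limma-voom, 909 with the replicate block and 2184 with all 4 groups in 1 fit. The interaction called 113 genes, but 181 on deposited scaling, 52 with equal medians, 6 without a filter and 354 at a mean of at least 5. The causes were not tested.

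Uncalled members changed sign: with equal medians, Dll1 in control (-0.087) and Notch1 in the interaction (0.0039); and over libraries left out, in NEC Notch1 (-0.097 to 0.0047), Dll4 (-0.25 to 0.028), Jag1 (-0.30 to 0.10) and Neurog3 (-0.16 to 0.15), in control Notch1 (-0.20 to 0.079) and Dll1 (-0.22 to 0.15), in CKO Hes1 (-0.011 to 0.32), and in the interaction Notch1 (-0.13 to 0.14), Spdef (-0.13 to 0.32) and Neurog3 (-0.11 to 0.19).

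Same-numbered libraries did not deviate together (correlations of -0.12 to 0.36 over 12 pairs, 4 of them best with their own number), so the numbers were not taken as pairs. With the replicate block Dll4 in CKO had an adjusted p of 0.0540, which left 5 members called there and 6 in flox. Values of Neurog3 in control tissue rest on 1 to 7 reads a library, which limits their precision.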
